A study of Mus musculus with 4 samples.

Results

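The passage of a lymphocyte from rest into DNA synthesis is set by a small group of genes, and 10 of them were followed here in large intestinal ILC2s given deoxycholic acid (DCA), a bile acid made by gut bacteria. The 10 genes are the D-type cyclins Ccnd2 and Ccnd3, the E-type cyclins Ccne1 and Ccne2, the G1 kinases Cdk4 and Cdk6, the CIP/KIP inhibitors Cdkn1a and Cdkn1b, and the INK4 inhibitors Cdkn2a and Cdkn2c. They were picked by gene symbol, with 1 row each among the 27179 rows of the deposited count table. ILC2s, innate lymphocytes that release type 2 cytokines, were sorted from C57BL/6 mice as CD45.2+ Lin- CD127+ KLRG1+ cells and expanded for 5 days in IL-33, IL-25, IL-7, and IL-2, each at 10 ng/mL. Vehicle alone (2 libraries) or DCA (2 libraries) was then added, and the cytokines were shared by both treatments. The methods of the study give the DCA dose as 100 μM and the time as 24 hours, whereas the design text of the series gives 16 hours. No label says whether the replicate libraries came from separate mice or cultures, so a p-value measures only the spread between these libraries.

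In G1, growth factors and cytokines such as IL-2 and IL-7 raise the D-type cyclins, which bind CDK4 or CDK6 and begin the phosphorylation of the retinoblastoma protein RB. This frees E2F transcription factors, which switch on the E-type cyclins, the partners of CDK2, and the genes of DNA replication. INK4 proteins bind CDK4 and CDK6 and keep the D-type cyclins away, whereas the CIP/KIP proteins p21 and p27 bind whole cyclin-CDK complexes. RNA levels report only part of this control, because cyclins and inhibitors are also regulated by protein destruction.

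None of the genes passed the test of DCA against vehicle. Between 26564059 and 35838342 reads were counted in each of 3 libraries and 244165712 in DCA replicate 2. Values below are CPM, the read count divided by the library size and scaled per 1000000 reads, with library sizes adjusted by the TMM method. The effect of DCA was tested with the two-sided quasi-likelihood test of edgeR, and p-values were adjusted (Benjamini-Hochberg) over 11184 genes whose mean reached 1 CPM. This filter kept 9 of the 10 genes and dropped Cdkn2a. An adjusted p under 0.05 was reached by 0 of the 9, and by 0% of all genes tested. With DESeq2 on these 11184 genes, 126 passed that threshold, and 0 of the 9 were among them. DESeq2 without this filter (17706 genes) gave 253, with 0 of the 10 genes. At an unadjusted p under 0.05 there were 0 of the 9 and 4.27% of all genes (477). A p that misses the threshold does not show that a gene is equal in both treatments, and 2 libraries against 2 cannot give a two-sided exact permutation p below 0.333. All 12 ILC2 markers passed the filter and summed to between 17694 and 22354 CPM, of which Il5 alone made up 7707 to 12358 CPM. Klrg1, a marker of the sort, was at 687 and 677 CPM with vehicle and at 463 and 357 CPM with DCA (unadjusted p = 0.0156, edgeR), and Il1rl1 was at 831 and 875 against 598 and 534 CPM (unadjusted p = 0.0235, edgeR). Il7r, the gene of the sort marker CD127, went the other way, at 373 and 350 against 582 and 462 CPM (unadjusted p = 0.0515, edgeR). Areg was at 530 and 510 CPM with vehicle and at 434 and 254 CPM with DCA (unadjusted p = 0.0875, edgeR). Of the 12 markers, 3 (Il5, Il7r, and Icos) had both DCA libraries above both vehicle libraries and 3 (Klrg1, Il1rl1, and Areg) had both below. Over all genes tested these shares were 18.8% and 14.5%. The median log2 fold change of the 12 was 0.018. The 4 ILC3 markers had no counts, and the summed markers of macrophages and monocytes were at or under 0.382 CPM. Summed markers of T cells were at 14.5 to 26.6 CPM with vehicle and at 11.3 to 21.6 CPM with DCA, those of B cells at 47.1 to 55.0 and 37.7 to 44.6 CPM, those of epithelial cells at 7.09 to 8.05 and 4.48 to 7.93 CPM, and those of mast cells and basophils at 3.49 to 4.61 and 0.350 to 4.70 CPM. Cd4, Cd8a, and Pax5 had no counts in any library. The 15 mitochondrially encoded genes in the table summed to 23628 and 18444 CPM with vehicle and to 12236 and 15262 CPM with DCA, so they were lower in both DCA libraries. The part of cell composition and of mitochondrial RNA in the values was not tested, and in such bulk samples fewer cycling cells and less RNA per cell cannot be told apart.

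The sequences below lie just before annotated starts of Cdk4 and Cdkn2a, the members with the highest and the lowest level per length with vehicle. They are from RefSeq on GRCm38.p6, run 5′ to 3′ on the strand of the gene, and end at the base before the start. The Cdk4 stretch covers chr10:127063355-127063534 on the plus strand, and the capitals mark the E-box CACGTG, the letters bound by MYC and related factors. The Cdkn2a gene has a pair of starts. The upstream start opens the transcript of p19ARF and the other the transcript of p16INK4a, so a single count for Cdkn2a sums RNAs that encode different proteins. Their stretches cover chr4:89294620-89294739 and chr4:89282193-89282312 on the minus strand, and the capitals mark the E2F letters TTTCCCGC.

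Cdk4: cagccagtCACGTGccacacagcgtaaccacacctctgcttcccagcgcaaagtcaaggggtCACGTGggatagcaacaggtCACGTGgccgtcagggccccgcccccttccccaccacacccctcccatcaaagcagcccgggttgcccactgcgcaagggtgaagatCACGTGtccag
Cdkn2a, upstream start: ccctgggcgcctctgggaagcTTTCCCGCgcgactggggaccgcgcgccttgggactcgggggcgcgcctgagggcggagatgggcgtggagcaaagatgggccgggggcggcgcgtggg
Cdkn2a, downstream start: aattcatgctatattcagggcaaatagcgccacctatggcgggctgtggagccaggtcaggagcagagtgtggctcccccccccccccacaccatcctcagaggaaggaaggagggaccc

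The Cdk4 window holds 4 E-boxes, whose first bases are at positions -172, -118, -98, and -11 from the start. At least 4 were found in 8 of the 32851 RefSeq promoter windows (0.0244%), and at least 1 in 7.15%. A window runs from 250 bases before a start to 50 after it. The reference held 12 windows for 8 of the 10 genes, all but Ccnd2 and Ccne2. Both strands were searched in these 12 for the E-box, for the E2F letters TTTCCCGC, TTTCGCGC, TTTGCCGC, or TTTGGCGC, for the STAT letters TTCNNNGAA, for the FOXO letters GTAAACAA, for the CHR letters TTTGAA, and for the GC box GGGCGG. The E-box was in windows of Cdk4, Cdk6, and Cdkn2c, and the E2F letters were in 1 window, the upstream start of Cdkn2a, against 2.26% of all windows. The GC box was in 9 of the 12 windows, against 35.7% of all windows. The STAT, FOXO, and CHR letters were in none of the 12, against 8.30%, 1.23%, and 17.9% of all windows. These matches describe the letters only, and no binding was measured.

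**Figure D1:**
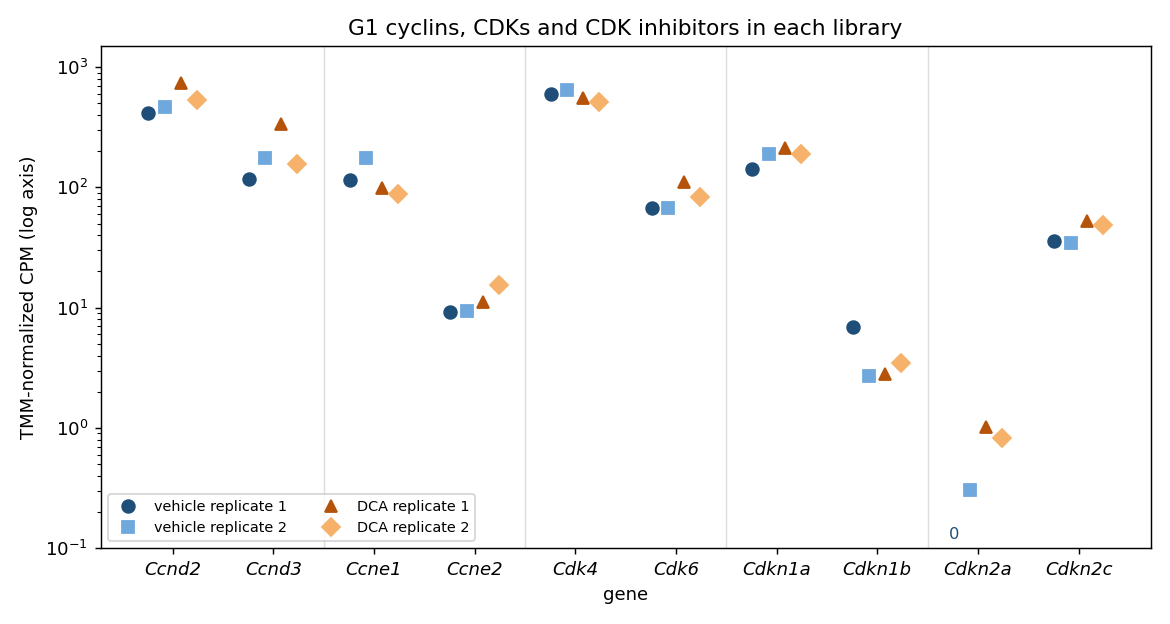
TMM-normalized CPM (log axis) of the 10 genes in the 2 vehicle libraries (blue) and the 2 DCA libraries (orange), with 1 point per library and a printed 0 for Cdkn2a in vehicle replicate 1. Both DCA points lie above both vehicle points for Ccnd2, Ccne2, Cdk6, Cdkn1a, Cdkn2a, and Cdkn2c. They lie below both for Ccne1 and Cdk4. Cdkn2a did not pass the filter. Of all genes tested, 18.8% lay above and 14.5% below in this way.

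The D-type cyclins, the link between cytokine receptors and the cell cycle, were at their highest in DCA replicate 1. Ccnd2 (Entrez gene 12444, chromosome 6, 127125162 to 127152188 on GRCm38) is the D-type cyclin known for its induction by IL-2 and IL-7 signals. Ccnd2 was at 419 and 464 CPM with vehicle and at 732 and 528 CPM with DCA. Each DCA library exceeded both vehicle libraries. The means were 442 ± 31.7 CPM (SD, n = 2) and 630.1 ± 145 CPM (SD, n = 2), a log2 fold change of 0.51 (standard error 0.25, unadjusted p = 0.0753, adjusted p = 0.998, edgeR). Without DCA replicate 1 the log2 fold change of Ccnd2 was 0.26. Antisense genes overlap 3.95% and 3.91% of the Ccnd2 exon bases. Ccnd3 (Entrez gene 12445, chromosome 17, 47505051 to 47599689), the cyclin D3 gene, was at 117 and 175 CPM with vehicle and at 335 and 158 CPM with DCA. The treatments overlapped, since only DCA replicate 1 stood above both vehicle libraries. Its log2 fold change was 0.76 (standard error 0.61, unadjusted p = 0.111, adjusted p = 0.998, edgeR), and leaving out DCA replicate 1 gave 0.11, vehicle replicate 1 gave 0.47, and DCA replicate 2 gave 1.20. On opposite strands, 361 bases of Ccnd3 exons (4.11%) overlap exons of Bysl. Without a stated strand setting, reads there cannot be assigned.

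Cyclin D1, the D-type cyclin of many other tissues, was almost without counts. Counts of Ccnd1 were 4 and 2 with vehicle and 53 and 191 with DCA, which is at most 1.64 CPM in any library, and it did not pass the filter. Counts of Ccnd2 and Ccnd3 together came to 536 and 639 CPM with vehicle and to 1067 and 686 CPM with DCA.

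The E-type cyclins, which carry CDK2 into S phase, lay on opposite sides of 0. Ccne1 (Entrez gene 12447, chromosome 7, 38097984 to 38107490) was at 114 and 175 CPM with vehicle and at 99.5 and 88.0 CPM with DCA. Both DCA libraries were below both vehicle libraries, by a small margin in the case of vehicle replicate 1. The log2 fold change of Ccne1 was -0.63 (standard error 0.32, unadjusted p = 0.0794, adjusted p = 0.998, edgeR). It was -0.29 without vehicle replicate 2, the library in which Ccne1 was highest. Ccne2 (Entrez gene 12448, chromosome 4, 11190433 to 11204779) was at 9.22 and 9.34 CPM with vehicle and at 11.1 and 15.4 CPM with DCA. Each DCA library exceeded both vehicle libraries, and the log2 fold change was 0.52 (standard error 0.22, unadjusted p = 0.469, edgeR), or 0.26 without DCA replicate 2. The exons of Ccne2 share 609 bases (17.4%) with those of Ints8 on the other strand. Ints8 was at 38.5 to 78.2 CPM, so the Ccne2 counts are uncertain. Per length of merged exon, the level of Ccne1 was 7.49 to 24.6 times that of Ccne2.

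The G1 kinases also lay on opposite sides. Cdk4 (Entrez gene 12567, chromosome 10, 127063535 to 127067288) was at 595 and 644 CPM with vehicle and at 553 and 514 CPM with DCA. Both DCA libraries were below both vehicle libraries, and the whole range of the 4 libraries was narrow. Its log2 fold change was -0.22 (standard error 0.077, unadjusted p = 0.318, edgeR). Tspan31, on the other strand at 125 to 160.4 CPM, shares 641 bases (19.7%) of the Cdk4 exons. Cdk6 (Entrez gene 12571, chromosome 5, 3341004 to 3531008), the kinase that pairs with D-type cyclins chiefly in blood cells, was at 67.6 and 67.9 CPM with vehicle and at 112 and 83.0 CPM with DCA. The vehicle libraries differed by less than 1 CPM and both DCA libraries were above them. The log2 fold change of Cdk6 was 0.52 (standard error 0.21, unadjusted p = 0.118, adjusted p = 0.998, edgeR), and it was 0.29 without DCA replicate 1.

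Of the CIP/KIP inhibitors, Cdkn1a was the more abundant per length in every library. Cdkn1a (Entrez gene 12575, chromosome 17, 29090979 to 29100722) encodes p21, a target of p53. It was at 143 and 188 CPM with vehicle and at 214 and 189.8 CPM with DCA. The lower DCA library exceeded the higher vehicle library by less than 2 CPM. The log2 fold change was 0.28 (standard error 0.21, unadjusted p = 0.293, edgeR), with 0.078 when vehicle replicate 1 was left out and 0.49 when vehicle replicate 2 was. A gene model on the other strand overlaps 7.68% of the Cdkn1a exons. Cdkn1b (Entrez gene 12576, chromosome 6, 134920401 to 134925525) encodes p27, which holds resting lymphocytes out of the cycle and is removed when they divide. Cdkn1b was at 6.90 and 2.71 CPM with vehicle (253 and 71 counts) and at 2.81 and 3.46 CPM with DCA (91 and 831 counts). Only vehicle replicate 1 stood apart, and the treatments overlapped. The Cdkn1b log2 fold change of -0.61 (standard error 0.56, unadjusted p = 0.654, edgeR) turned to 0.19 without vehicle replicate 1 and was -1.14 without vehicle replicate 2. The standard error is on the scale of log2(CPM + 1), where the change of Cdkn1b was -0.39.

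The INK4 inhibitors gave the tightest and the sparsest values. Cdkn2c (Entrez gene 12580, chromosome 4, 109660876 to 109666756), which encodes p18INK4c, was at 35.9 and 34.5 CPM with vehicle and at 52.3 and 49.0 CPM with DCA. The gap between treatments was wider than the range within either one. The means were 35.2 ± 0.995 CPM and 50.7 ± 2.36 CPM (SD, n = 2 each). The log2 fold change of Cdkn2c was 0.52 with a standard error of 0.054, the smallest among the 9 tested genes. The unadjusted p was nevertheless 0.166 and the adjusted p 0.998 in edgeR's test, which moderates the spread of a gene toward that of genes at a similar level. Between 0.48 and 0.57 was obtained when each library was left out in turn.

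Cdkn2a (Entrez gene 12578, chromosome 4, 89274473 to 89294619), a gene that accumulates with replicative age, was nearly silent, with 0 and 8 counts in the vehicle libraries and 33 and 197 in the DCA libraries. The CPM values were 0 and 0.305 against 1.02 and 0.821, and each DCA library exceeded both vehicle libraries. A count of 0 in vehicle replicate 1 allows up to 3 counts, or 0.0819 CPM, by counting error alone. In the alternative fits that kept Cdkn2a (no filter, filterByExpr, or DESeq2), its log2 fold change was between 2.57 and 2.60, with an unadjusted p of 0.318 to 0.494. Its neighbor Cdkn2b, the gene of p15INK4b on the same stretch of chromosome 4, gave 76 and 0 counts in the vehicle libraries and 324 and 298 in the DCA libraries. Cdkn2b overlapped between treatments, as DCA replicate 2 was at 1.24 CPM and vehicle replicate 1 at 2.07 CPM.

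**Figure D2:**
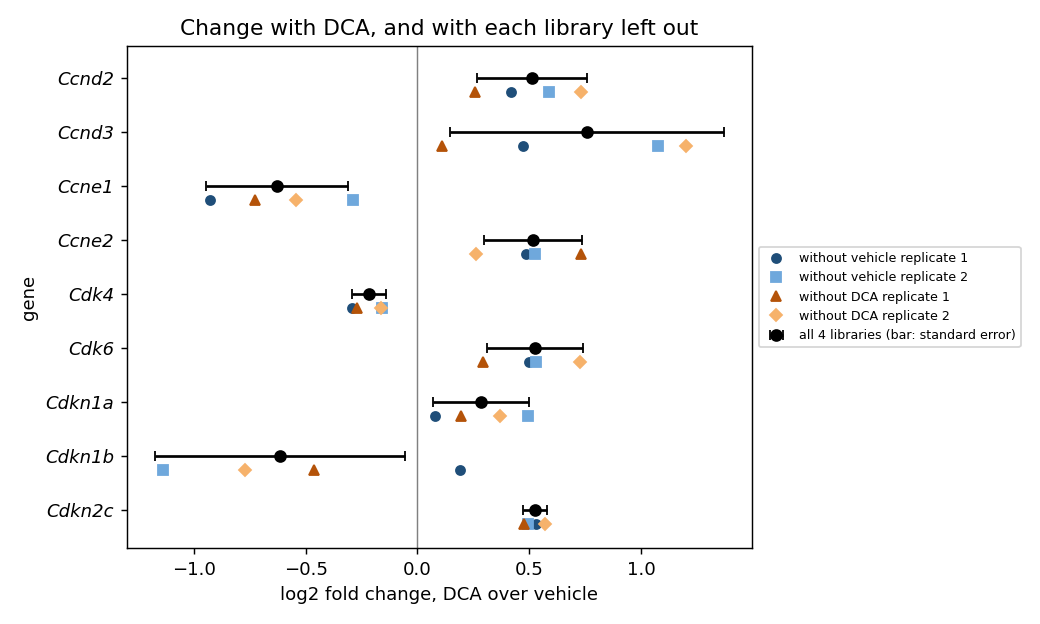
Log2 fold change of DCA over vehicle for the 9 tested genes with all 4 libraries (black, with a bar of 1 standard error) and with each library left out (colored points). The bars are from log2(CPM + 1) and the changes from edgeR. Cdkn2c stays near 0.52 in every case, whereas Ccnd3 runs from 0.11 to 1.20 and Cdkn1b crosses 0 without vehicle replicate 1.

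Of the 9 tested genes, 5 had both DCA libraries above both vehicle libraries and 2 had both below, or 7 that did not overlap. Over all genes tested 33.4% did not overlap, 18.8% with DCA above and 14.5% with DCA below. Each of the 7 had an exact p of 0.333. The median log2 fold change of the 9 was 0.51, beside 0.012 over all genes tested, with 6 values above 0 and 3 below. Leaving out DCA replicate 1 took the median to 0.19. The log2 fold changes of Ccnd2, Ccne2, Cdk6, and Cdkn2c fell between 0.51 and 0.52, although these genes differ in level. All 9 changes were between -0.63 and 0.76.

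Levels of different genes were compared only after division by the length of their merged exons, as CPM per kilobase. Cdk4 led in every library, at 183 and 198 CPM per kilobase with vehicle and 170.2 and 158 with DCA. With vehicle, Ccne1 (54.4 ± 16.2 CPM per kilobase, SD, n = 2), Ccnd2 (46.9 ± 3.37), and Cdkn1a (46.6 ± 8.95) came next, and the libraries of neighbors in this order overlapped. Ccnd3 (16.6 ± 4.67) and Cdkn2c (13.1 ± 0.370) overlapped as well. The others were separate from each neighbor, with Cdk6 at 4.84 ± 0.018, Ccne2 at 2.66 ± 0.023, Cdkn1b at 1.06 ± 0.652, and Cdkn2a at 0.130 ± 0.184 CPM per kilobase. With DCA, Ccnd2 (67.0 ± 15.4) and Cdkn1a (56.8 ± 4.74) were both above Ccne1 (35.2 ± 3.08), and Ccne1 overlapped Ccnd3. Per length, Ccnd2 exceeded Ccnd3 by 2.04 to 3.35 times over the 4 libraries, and Cdkn1a exceeded Cdkn1b by 26.6 to 97.3 times. With the longest transcript as length, these were 1.33 to 2.19 times and 45.4 to 166 times.

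**Figure D3:**
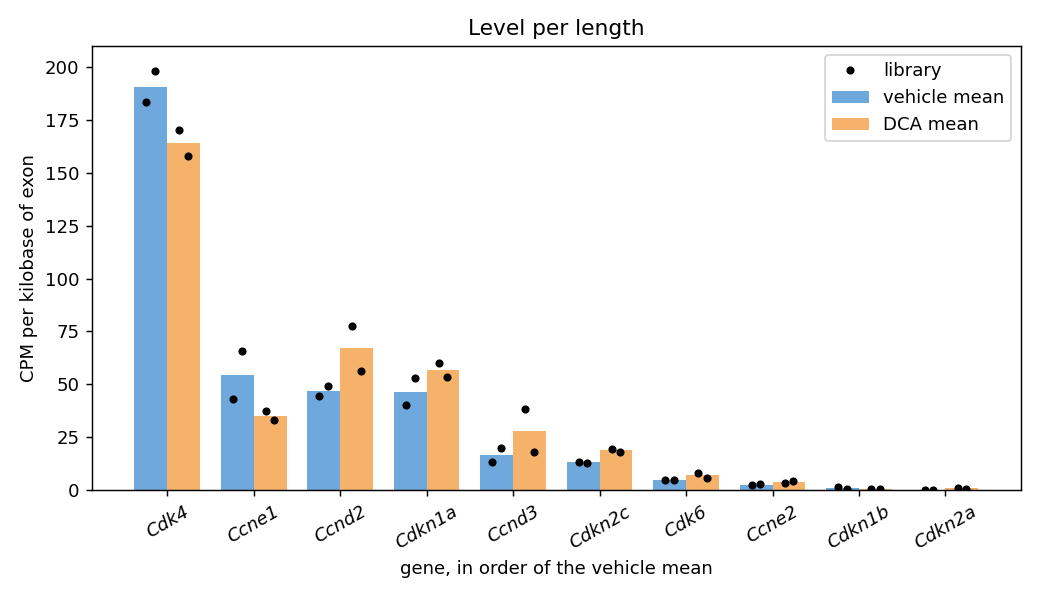
Bars give the mean CPM per kilobase of merged exon (axis from 0) with vehicle (blue) and DCA (orange), and dots give the 2 libraries of each treatment, for the 10 genes in order of the vehicle mean. Cdk4 stands above all others in every library. The mean of Ccne1 is above those of Ccnd2 and Cdkn1a with vehicle, where their libraries overlap, and below both with DCA. With the longest transcript as length, Cdkn1a is above Ccne1 with vehicle as well (79.7 against 72.4 CPM per kilobase).

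Ratios within a library do not depend on its scaling, and 8 pairs were compared. The ratio of Cdk6 to Cdk4, the alternative partners of the D-type cyclins, was 0.113 and 0.106 with vehicle and 0.202 and 0.162 with DCA. For Cdkn2c to Cdk4, an inhibitor and its target, it was 0.0603 and 0.0537 with vehicle and 0.0946 and 0.0954 with DCA. The ratio of Ccne1 to Ccnd2, the late and the early cyclin of G1, was 0.273 and 0.378 with vehicle and 0.136 and 0.167 with DCA. That of Ccne2 to Ccne1 was 0.0806 and 0.0533 with vehicle and 0.112 and 0.175 with DCA. The treatments did not overlap for these 4 pairs, with log2 differences of 0.72 (standard error 0.17), 0.74 (0.085), -1.09 (0.28), and 1.10 (0.44), each with a two-sided exact permutation p of 0.333, or 0.667 adjusted over the 8 pairs. Each of the 4 sets Cdk4 or Ccne1, lower in both DCA libraries, against a gene that was higher in both. Their separation therefore follows from the values given above and is not a further result. The share of other gene pairs that do not overlap was not counted. The pairs Cdkn2c to Cdk6, Ccnd3 to Ccnd2, Cdkn1a to Ccnd2, and Cdkn1b to Cdkn1a overlapped, and Cdkn2c to Cdk6 differed by 0.015 on the log2 scale (standard error 0.17).

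**Figure D4:**
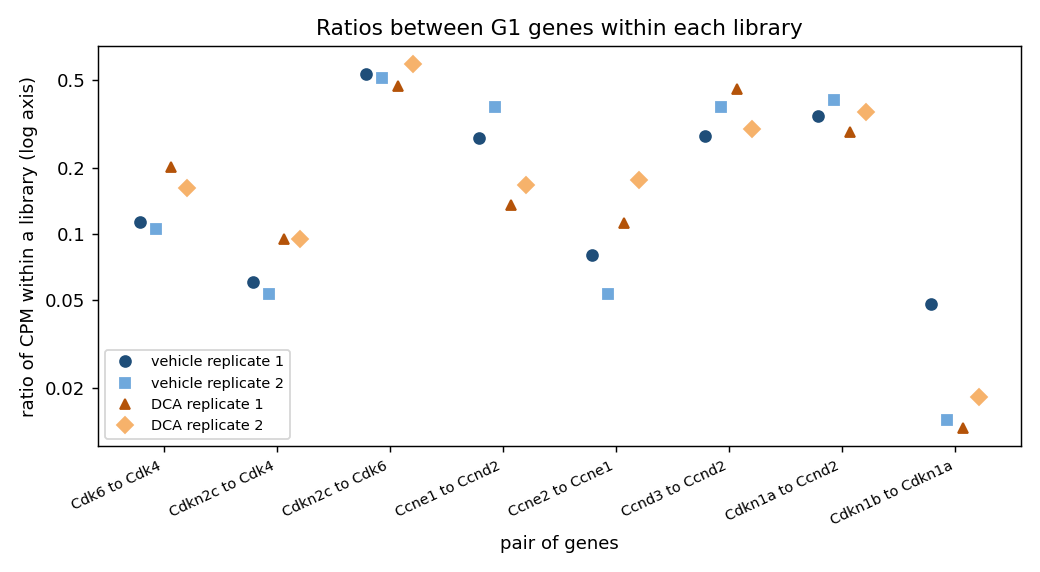
Ratio of CPM (log axis) between genes of each of 8 pairs within the 2 vehicle libraries (blue) and the 2 DCA libraries (orange). Points of the treatments are apart for Cdk6 to Cdk4, Cdkn2c to Cdk4, Ccne1 to Ccnd2, and Ccne2 to Ccne1 and overlap for the other pairs.

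Several of the genes had like profiles across the 4 libraries. Likeness was measured as the root mean square distance between profiles of log2(CPM + 1), each centered on its own mean. Ccnd2 and Cdk6 were the closest pair, at 0.052, followed by Cdk6 and Cdkn2c at 0.12. Over the 7901 other genes averaging 10 CPM or more, Thoc5 (0.015), Znhit2 (0.019), and Rasa4 (0.022) lay nearest to Ccnd2, and 65 genes were within 0.1. Nearest to Cdkn1a were Stx8 (0.025), Rps6kb1 (0.025), and Thumpd3 (0.030), with 171 genes within 0.1. With 4 libraries, this likeness is a description only.

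Among 89 other genes of G1 and S phase control, in 9 lists, 86 were tested, and 0 had an adjusted p under 0.05. At an unadjusted p under 0.05 there were 3, of which 2 were higher and 1 lower with DCA. Over all genes tested, 2.57% had such a p and were higher, and 1.70% had such a p and were lower. The 3 were Lin37, Fzr1, and Dtl. Lin37, a subunit of the MuvB complex that represses cell cycle genes together with pocket proteins, was at 48.4 and 47.2 CPM with vehicle and at 101 and 83.9 CPM with DCA (log2 fold change 0.95, unadjusted p = 0.0156, adjusted p = 0.998, edgeR). Fzr1, whose product CDH1 activates the anaphase-promoting complex in G1, was at 50.9 and 45.1 CPM with vehicle and at 99.4 and 78.8 CPM with DCA (log2 fold change 0.89, unadjusted p = 0.0237, edgeR). Dtl, the subunit that directs a CUL4 ligase to p21 and CDT1, was at 62.8 and 103 CPM with vehicle and at 45.5 and 37.3 CPM with DCA (log2 fold change -1.01, unadjusted p = 0.0312, edgeR). Skp2, which directs the SCF ligase to p27, was singled out after its values were seen. It was at 9.06 and 9.03 CPM with vehicle and at 3.09 and 3.12 CPM with DCA, with a log2 fold change of -1.54 and an unadjusted p of 0.166.

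Genes downstream of the cyclins were measured at high levels. The 20 E2F target genes of G1/S summed to 4924 and 6627 CPM with vehicle and to 5106 and 5122 CPM with DCA, so the vehicle libraries differed from each other by more than the DCA libraries did. All 20 were tested, 0 with an unadjusted p under 0.05, and their median log2 fold change was -0.16, with 1 gene entirely above vehicle, 4 entirely below, and 15 overlapping, where 18.8% of all genes tested were above and 14.5% below. Leaving out vehicle replicate 1 gave a median of -0.31, and leaving out vehicle replicate 2 gave -0.0068. Mcm3 and Mcm5, subunits of the replicative helicase, had the smallest unadjusted p among those not overlapping, at 0.0740 and 0.0995. Mcm3 was at 346 and 380.0 CPM with vehicle and at 283 and 246 CPM with DCA. Mcm5 was at 380.2 and 507 CPM with vehicle and at 333 and 316 CPM with DCA. Cdk2, the partner of the E-type cyclins, was at 124 and 95.7 CPM with vehicle and at 69.2 and 83.2 CPM with DCA (log2 fold change -0.52, unadjusted p = 0.113, edgeR). Ccna2, the S phase cyclin that follows them, was at 186 and 189.3 CPM with vehicle and at 141 and 159 CPM with DCA (log2 fold change -0.32, unadjusted p = 0.20, edgeR).

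Of the regulators of RB, the pocket proteins Rb1, Rbl1, and Rbl2 all overlapped between treatments, with a median log2 fold change of -0.22 that turned to 0.12 without vehicle replicate 2 and 0.022 without DCA replicate 2. Among the 10 E2F and DP factors, 4 were lower in both DCA libraries, 0 were higher in both (14.5% and 18.8% of all genes tested), and the median was -0.012, or -0.41 without vehicle replicate 2. E2f4, a repressor form, was at 229 and 305 CPM with vehicle and at 189.5 and 217 CPM with DCA, and E2f7 was at 34.3 and 24.3 against 22.8 and 11.6 CPM. Lin9, another MuvB subunit, was at 41.8 and 29.6 CPM with vehicle and at 24.7 and 19.1 CPM with DCA, and the median of the 5 MuvB genes was 0.025, or -0.80 without vehicle replicate 2. The other G1 and S phase cyclins and CDKs had a median of 0.023 over 8 tested genes, or -0.34 without DCA replicate 2. Cdkn2d, the gene of p19INK4d, was at 158 and 209.8 CPM with vehicle and at 286 and 226 CPM with DCA (log2 fold change 0.47, unadjusted p = 0.115, edgeR). With Cdkn2b it made up the tested genes of the list of other inhibitors, whose median of 1.45 rests on the few counts of Cdkn2b, while Cdkn1c had 154 counts in DCA replicate 2 and 0 elsewhere.

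The upstream regulators had a median log2 fold change of -0.18 over 13 genes, with 1 gene above vehicle in both DCA libraries, 1 below, and 11 overlapping, against 33.4% of all genes tested that did not overlap. The median turned to 0.022 without vehicle replicate 2. Zbtb17, which encodes MIZ1, a partner through which MYC represses INK4 and CIP/KIP genes, was at 14.5 and 15.8 CPM with vehicle and at 63.9 and 16.1 CPM with DCA, so its log2 fold change of 1.40 (unadjusted p = 0.0881, edgeR) rests on DCA replicate 1. Cbx7, a Polycomb protein known for repression of Cdkn2a, was at 34.6 and 17.3 CPM with vehicle and at 6.99 and 14.1 CPM with DCA (log2 fold change -1.30, unadjusted p = 0.0906, edgeR). The 15 tested p53 target genes, measured beside Cdkn1a, had a median of -0.26, with 2 above, 3 below, and 10 overlapping, against the same 33.4%. It turned to 0.076 without vehicle replicate 1 and was -0.42 without vehicle replicate 2. Sesn1 was at 47.0 and 86.5 CPM with vehicle and at 40.4 and 34.1 CPM with DCA, and Pmaip1, the gene of the death factor NOXA, was at 42.1 and 25.6 against 21.3 and 14.9 CPM. The ubiquitin ligase genes had a median of -0.044 over 11 genes, or 0.038 without vehicle replicate 2.

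**Figure D5:**
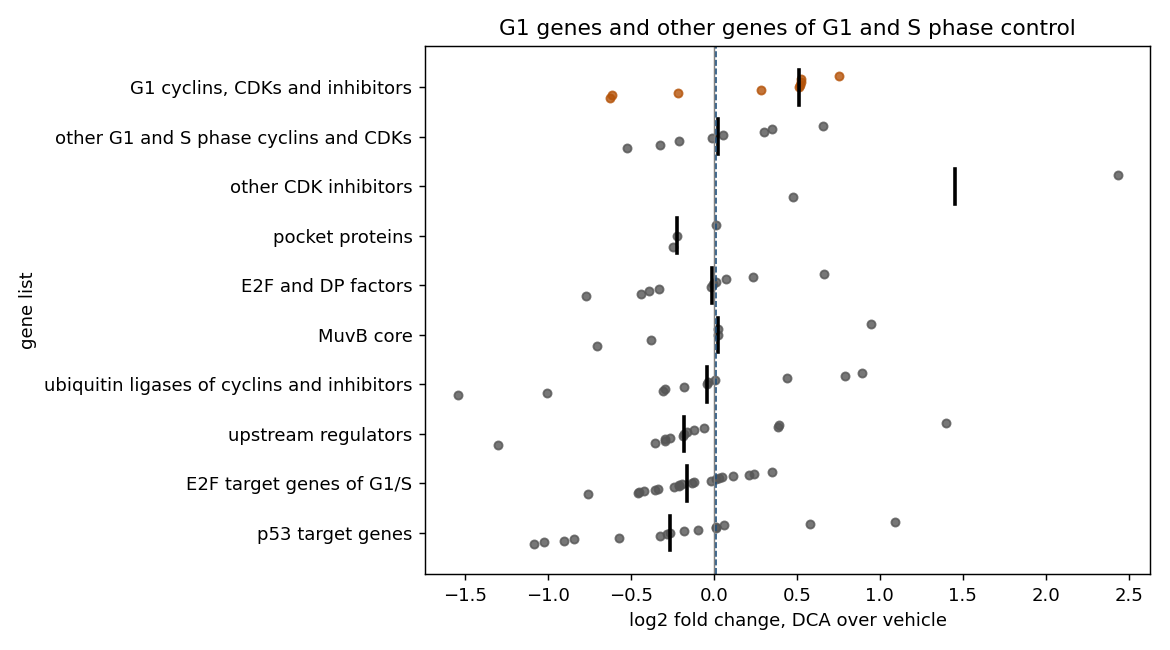
Log2 fold change of DCA over vehicle for the 9 tested G1 genes (orange) and for the genes of 9 other lists (gray), with 1 point per gene, a black line at each median, and a dashed line at the median of all genes tested (0.012). The median of the G1 genes lies at 0.51 and those of the E2F target genes and p53 target genes at -0.16 and -0.26. With 1 library left out these reached 0.19, -0.0068, and 0.076.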

How the data were processed

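Per the submitters' processing notes, the authors used cutadapt 1.9, HISAT2 2.2.1, and the mm10 build. The deposited values are whole-number read counts per gene, although the table is named for FPKM. The counting tool, its annotation, and its strand setting are not given in the sources used here. Rows without a symbol, 0.137% to 0.173% of the counts, were kept.

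Counts were scaled by TMM and tested with edgeR 4.0.16 in R 4.3.3 (quasi-likelihood, two-sided, mean CPM of 1 or more), where the study names DESeq2. The spread of log2(CPM + 1) between libraries gave the standard errors, whereas the log2 fold changes beside them are those of edgeR. The added 1 narrows this spread for genes at few CPM, such as Cdkn1b. Depth was 26564059 to 244165712 counts, and a count of 0 allows 0.0125 to 0.114 CPM (3 counts), covering counting error only. Merged exon lengths are from GENCODE M21 and positions and promoters from RefSeq, both on GRCm38. All 10 genes were named. Pathway genes named were those past an adjusted p of 0.05 or, where fewer than 2 passed, the 2 with the smallest unadjusted p among those not overlapping. Lin37, Fzr1, and Dtl are named by this rule, while Ccnd1, Cdkn2b, Cdkn1c, Skp2, and the pocket proteins were named after their values were seen. The ILC2 markers given by name fall outside this rule. The members and lists were chosen with earlier results of these data known. Alternatives were limma 3.58.1, DESeq2 1.42.0, other scalings and filters, a replicate block, thinning of DCA replicate 2 to 32100082 counts, and leaving out each library. DESeq2 with the main filter was added after the data were seen.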

Additional observations from a re-analysis of the deposited data

How the results depend on the processing

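For the 10 genes, 0 had an adjusted p under 0.05 under any of the 11 alternatives with all libraries or the 4 that left out 1, wherever they were tested. The count of all genes with an adjusted p under 0.05, 0 at first, was 36 without a filter, 253 with DESeq2 also without a filter, and 126 with DESeq2 on the 11184 filtered genes, an alternative chosen after seeing the data. It was 0 to 20 when a library was left out, with 20 without vehicle replicate 1. At an unadjusted p under 0.05 there were Ccnd3 (0.00878) and Ccne1 (0.0458) without a filter, Ccne1 with DESeq2 without a filter (0.0496), and Ccnd2 with the replicate block (0.0483) and with DESeq2 on the filtered genes (0.0424). Such a p was also given to Ccne1 without vehicle replicate 1 (0.0151) and to Ccnd3 without vehicle replicate 2 (0.0482) and without DCA replicate 2 (0.0234). Over all genes it was given to 847 of 17706 without a filter, to 1242 of 17706 and 784 of 11184 in the DESeq2 fits, to 464 of 11184 with the block, and to 102 to 1505 genes with a library left out. The cause was not tested. With all libraries every gene kept its direction, and the median of those tested (8 to 10) was 0.41 to 0.51. The median of the 9 was 0.19 (without DCA replicate 1) to 0.49 when 1 library was left out, where a lone library is assumed to vary like the others. Cdkn1b ran from -1.14 without vehicle replicate 2 to 0.19, a reversed direction, without vehicle replicate 1.

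The deviations of same-numbered libraries from their treatment means correlated at 0.020 across genes, so no shared replicate effect was seen. This value cannot show whether same-numbered libraries came from the same mice or cultures, which no label states. With the replicate block the median of the 9 was 0.50, and 0 genes had an adjusted p under 0.05. Across all genes tested, log2(CPM + 1) of the 2 vehicle libraries correlated at 0.873 and that of the 2 DCA libraries at 0.932. Pairs of a vehicle and a DCA library correlated at 0.884 to 0.915. The vehicle libraries were thus less alike than any vehicle library and DCA library were.

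With 1 library left out, list medians ran from -0.34 (without DCA replicate 2) to 0.15 for other cyclins and CDKs, 0.28 (without DCA replicate 1) to 6.19 (without vehicle replicate 1) for other inhibitors, -0.41 (without vehicle replicate 2) to -0.050 for E2F and DP factors, -0.80 (without vehicle replicate 2) to 0.20 for MuvB genes, -0.33 (without DCA replicate 2) to 0.038 for ubiquitin ligases, -0.26 to 0.12 for pocket proteins, -0.32 to 0.022 for upstream regulators, -0.31 to -0.0068 for E2F targets, and -0.42 to 0.076 for p53 targets. With the longest transcript as length, 3 of the 10 genes changed rank in the vehicle order.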
